A study of Homo sapiens with 24 samples.

Results

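AGR2, IGFBP3 and AKAP12 are 3 of the 60675 genes counted in RNA-seq libraries of prostate cancer cells depleted of the RNA methyltransferase METTL3. They were chosen from the values themselves, as genes whose rise with the synthetic androgen R1881 was smaller under METTL3 knockdown in 22Rv1 cells, so their values in 22Rv1 are given as a description without a test. Those in the second cell line, LNCaP:C4-2, played no part in the choice and were tested. The 24 libraries comprise 3 for each of 8 conditions. LNCaP:C4-2 (castrate resistant, sensitive to enzalutamide) and 22Rv1 (resistant to enzalutamide) were transfected with pooled siRNAs that target METTL3 (siMETTL3) or with a scrambled control pool that targets no gene (siSCR). A second transfection followed after 48 h, together with 1 nM R1881 or its ethanol vehicle for 72 h, and both lines were kept in medium with hormone-depleted serum throughout. Every value therefore comes from transfected cells of established lines, and neither the labels nor the methods used here state whether the 3 libraries of a condition are separate cultures, so errors measure the spread between libraries.

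The proteins work in different compartments. AGR2 is a protein disulphide isomerase of the endoplasmic reticulum that helps to fold mucins and can be secreted, and it is frequently raised in prostate adenocarcinoma. IGFBP3 is the main circulating binding protein of the insulin-like growth factors (IGFs), which it holds away from their receptor. AKAP12, also called gravin, is a scaffold that tethers protein kinase A and protein kinase C at the plasma membrane. R1881 acts through the androgen receptor, a nuclear receptor that binds DNA near its target genes. METTL3 is the catalytic subunit of the complex that writes N6-methyladenosine on mRNA, often within the sequence GGACT.

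On GRCh38, AGR2 (ENSG00000106541) spans chr7:16791811-16833433 on the minus strand, with 2845 bases of annotated exon to which its fragments were assigned. IGFBP3 (ENSG00000146674) spans chr7:45912245-45921874 on the minus strand with 4571 exonic bases. AKAP12 (ENSG00000131016) spans chr6:151239999-151358557 on the plus strand with 8741 exonic bases. RefSeq (GRCh38.p14) gives AGR2 and IGFBP3 a single promoter window each and AKAP12 3 windows, which counts per gene cannot tell apart. The 300 bases of each, which span the start site, are shown because all 3 genes responded to androgen in at least 1 line. Capitals mark matches to GGGCGG, to CACGTG or to the CCAAT box, read on either strand.
AGR2 promoter, chr7:16804950-16805249, minus strand: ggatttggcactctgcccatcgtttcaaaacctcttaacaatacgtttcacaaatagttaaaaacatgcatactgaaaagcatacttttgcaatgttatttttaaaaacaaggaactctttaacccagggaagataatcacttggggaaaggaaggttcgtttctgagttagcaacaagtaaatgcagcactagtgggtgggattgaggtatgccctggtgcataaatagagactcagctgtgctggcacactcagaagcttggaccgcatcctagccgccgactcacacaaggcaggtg
IGFBP3 promoter, chr7:45921223-45921522, minus strand: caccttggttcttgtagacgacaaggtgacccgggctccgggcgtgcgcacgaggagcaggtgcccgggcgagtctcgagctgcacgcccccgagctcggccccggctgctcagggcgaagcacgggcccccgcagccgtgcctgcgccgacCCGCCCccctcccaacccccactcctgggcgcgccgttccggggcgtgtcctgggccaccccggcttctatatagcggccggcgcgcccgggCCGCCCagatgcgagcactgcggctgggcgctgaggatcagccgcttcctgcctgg
AKAP12 promoter 1, chr6:151239717-151240016, plus strand: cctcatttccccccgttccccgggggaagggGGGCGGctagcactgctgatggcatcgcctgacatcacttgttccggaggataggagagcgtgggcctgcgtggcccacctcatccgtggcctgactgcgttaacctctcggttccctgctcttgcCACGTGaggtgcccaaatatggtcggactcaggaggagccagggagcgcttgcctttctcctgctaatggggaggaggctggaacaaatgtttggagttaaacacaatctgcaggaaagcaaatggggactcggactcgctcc
AKAP12 promoter 2, chr6:151325281-151325580, plus strand: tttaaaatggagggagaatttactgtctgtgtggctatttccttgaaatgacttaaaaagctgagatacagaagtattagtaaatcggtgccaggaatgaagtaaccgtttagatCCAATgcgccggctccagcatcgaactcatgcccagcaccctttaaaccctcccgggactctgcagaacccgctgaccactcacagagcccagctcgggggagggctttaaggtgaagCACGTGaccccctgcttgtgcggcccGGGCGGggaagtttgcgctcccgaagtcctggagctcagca
AKAP12 promoter 3, chr6:151341456-151341755, plus strand: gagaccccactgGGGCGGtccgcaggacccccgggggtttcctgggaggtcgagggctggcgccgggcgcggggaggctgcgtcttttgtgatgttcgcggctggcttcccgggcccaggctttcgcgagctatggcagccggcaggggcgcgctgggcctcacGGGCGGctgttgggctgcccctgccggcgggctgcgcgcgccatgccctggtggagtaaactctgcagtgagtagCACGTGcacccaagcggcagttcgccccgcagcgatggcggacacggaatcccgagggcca

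None of these 5 windows held a perfect palindromic androgen response element, in which the arm AGAACA is followed after 3 bases by its reverse complement, and none held the arm alone. Of all 35116 promoter windows of this length, 0.00285% held the palindrome and 14.8% the arm on either strand, and androgen receptor sites commonly lie far from promoters. CACGTG, the palindromic E-box, was found once in each AKAP12 window and in neither of the others, against 7.26% of all windows. GGGCGG was found 2 times in the IGFBP3 window, once in each of the first and second AKAP12 windows and 2 times in the third, and 45% of all windows held it. CCAAT was in the second AKAP12 window (34.6% of all windows), and TATAAA was in none of the 5 (11.5%). The IGFBP3 window was rich in G and C at 74.7%, the AGR2 window poor at 43.7%, and the AKAP12 windows lay at 59.7%, 53.3% and 72.3%, against a median of 58.7%. These motifs were picked after the expression values were known, and a match is a description of letters only. Counts of GGACT also differed between the members. In the canonical GENCODE transcripts there were 3 copies in AGR2 (1.77 per kb), 1 in IGFBP3 (0.383 per kb) and 6 in AKAP12 (0.709 per kb), while the median of 20046 transcripts was 0.925 per kb.

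Library totals ran from 15716224 to 21306019 fragments, and 3 counts, the smallest signal read here, equalled 0.141 to 0.191 CPM. CPM are counts divided by the library total, which was scaled by the TMM method wherever conditions are compared below. METTL3 mRNA was lower with siMETTL3 in every library of both lines at the same treatment. In these bulk libraries a change in the share of expressing cells and a change in mRNA per cell cannot be told apart. In LNCaP:C4-2 it fell from 28.7 ± 2.35 to 19.02 ± 1.36 CPM in vehicle (SD, n = 3; adjusted p = 0.0127 in edgeR's quasi-likelihood test), and stood at 33.4 ± 2.67 and 22.4 ± 0.368 CPM with R1881, a log2 difference of −0.57 under the 1.5-fold threshold. In 22Rv1 it fell from 46.2 ± 0.690 to 24.9 ± 0.722 CPM in vehicle (edgeR adjusted p = 1.483e-06) and from 50.4 ± 1.46 to 22.4 ± 2.01 CPM with R1881 (edgeR adjusted p = 1.289e-08). All 9 luminal prostate markers averaged at least 1 CPM in both lines, and none of 3 basal markers did in either. Markers of fibroblasts (2 of 4 in LNCaP:C4-2, 1 of 4 in 22Rv1), endothelium (1 of 3 and 0) and immune cells (0 of 3 in both) were few. The fibroblast markers summed to 21.9 to 29.4 CPM in 22Rv1 vehicle libraries and 15.14 to 16.95 CPM with R1881, the endothelial ones in LNCaP:C4-2 to 2.23 to 3.43 and 4.54 to 12.5 CPM, and the luminal ones in LNCaP:C4-2 to 1812 to 2289 and 3625 to 4705 CPM. Their part in the results was not tested. FKBP5, a chaperone gene used as an androgen readout, rose 10.1-fold in 22Rv1 and 11.3-fold in LNCaP:C4-2 with siSCR.

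In 22Rv1, R1881 raised all 3 members with either siRNA pool, and every R1881 library stood above every vehicle library. All R1881 libraries were likewise above all vehicle libraries in 22.6% of the 17865 genes tested with siSCR and in 25.7% with siMETTL3. Genes called, that is, past an adjusted p of 0.05 and a 1.5-fold change, made up 13.8% (4.19% higher, 9.64% lower) and 13.5%. With siMETTL3 the R1881 libraries of each member were all lower than with siSCR, as in 20.9% of genes (3.29% of genes called in either direction). The vehicle libraries with siMETTL3 were all higher for AGR2 and AKAP12, and overlapped for IGFBP3. All siMETTL3 vehicle libraries were higher in 6.58% of genes, and 0.202% were called. For AGR2 and AKAP12 the smaller log2 response was thus made of a higher vehicle level and a lower R1881 level, and for IGFBP3 mainly of the latter. The share of counts from mitochondrial genes moved with the conditions in 22Rv1. It was 6.12% to 6.89% in siSCR vehicle, 4.96% to 5.28% in siSCR with R1881, 5.04% to 7.45% in siMETTL3 vehicle and 3.93% to 4.24% in siMETTL3 with R1881, and its part in the members' values was not tested.

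AGR2 in 22Rv1 read 64.5, 68.3 and 74.6 CPM in the siSCR vehicle libraries and 212.3, 210.2 and 206.9 CPM with R1881. With siMETTL3 it read 91.1, 79.2 and 85.1 CPM in vehicle and 156.4, 151.2 and 159.5 CPM with R1881. The 4 conditions did not overlap, and counts of 1241 to 3945 fragments lay behind these values. The R1881 response was 1.60 ± 0.07 on the log2 scale with siSCR (estimate ± SE, 3.02-fold) and 0.85 ± 0.07 with siMETTL3 (1.80-fold), a difference of −0.75 ± 0.10. Of this, the vehicle difference between siRNA pools gave 0.30 ± 0.07 and the R1881 difference −0.45 ± 0.07. In CPM, the rise with siMETTL3 was 70.6, or 50.2% of the 140.7 with siSCR.

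IGFBP3 in 22Rv1 read 115, 112 and 119 CPM in the siSCR vehicle libraries and 325, 303 and 286 CPM with R1881. With siMETTL3 it read 133, 117 and 136 CPM in vehicle and 215, 187 and 202 CPM with R1881. The vehicle libraries of the pools overlapped, and the R1881 libraries did not. The log2 response was 1.39 ± 0.08 with siSCR and 0.62 ± 0.07 with siMETTL3, a difference of −0.77 ± 0.11 in which the R1881 libraries carried −0.61 ± 0.07 and the vehicle libraries 0.16 ± 0.08. Its rise in CPM with siMETTL3 was 38.3% of that with siSCR, the smallest share of the 3 members.

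AKAP12 in 22Rv1 read 23.3, 20.7 and 21.04 CPM in the siSCR vehicle libraries and 483.9, 430.1 and 468.1 CPM with R1881. With siMETTL3 it read 26.9, 27.6 and 25.02 CPM in vehicle and 377, 349 and 311 CPM with R1881. No condition overlapped another. The response was 21.1-fold with siSCR (log2 4.40 ± 0.09), the 15th largest of 17865 genes, and 12.8-fold with siMETTL3 (log2 3.68 ± 0.09). The difference of −0.72 ± 0.12 was made of 0.29 ± 0.09 in vehicle and −0.43 ± 0.08 with R1881, and the rise in CPM with siMETTL3 was 72.7% of that with siSCR.

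**Figure D1:**
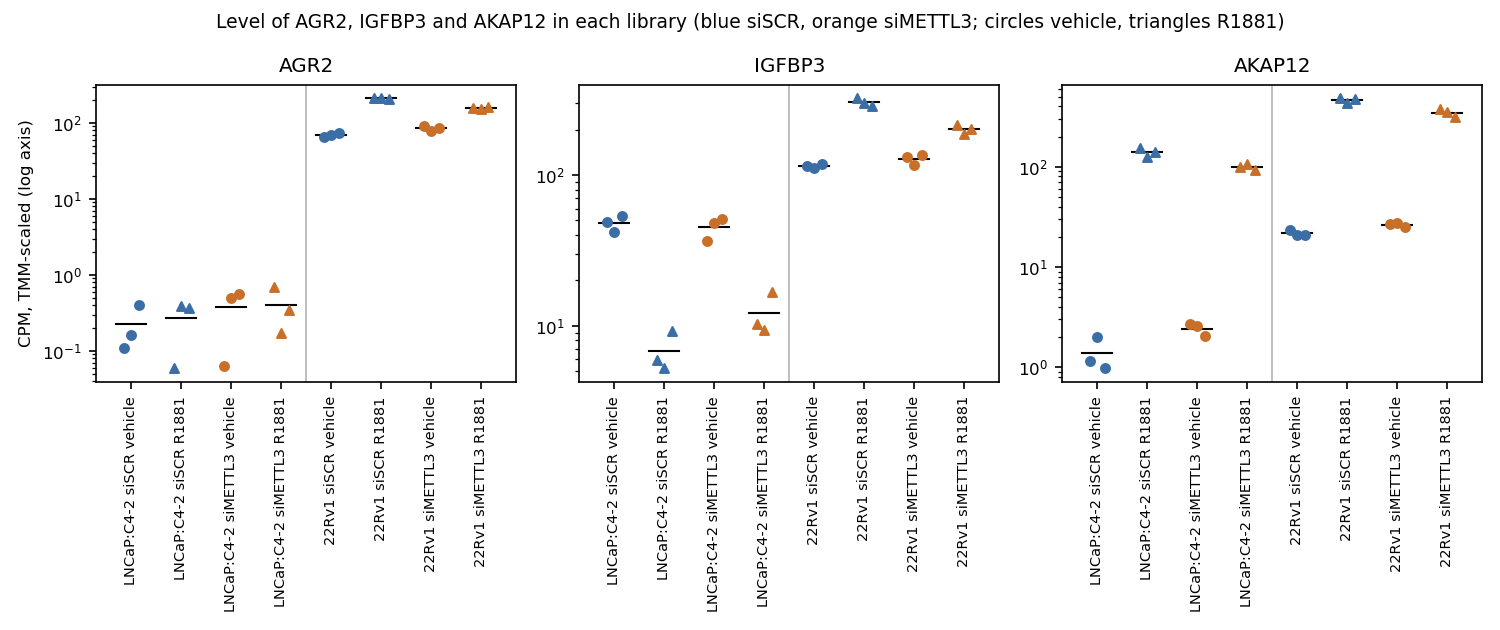
CPM (TMM-scaled, log axis) of AGR2, IGFBP3 and AKAP12 in each of the 24 libraries, by cell line, siRNA pool and treatment. Points are libraries and bars are condition means; AGR2 stayed below 1 CPM in every LNCaP:C4-2 library, IGFBP3 moved in opposite directions in the lines and AKAP12 was higher with R1881 in both.

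In 22Rv1, edgeR with the filter on low counts put 3 genes past an adjusted p of 0.05 for the interaction of R1881 and siMETTL3. This was 0.0168% of genes, and the 3 were the members. They were chosen on this contrast, so their passing is not a test. DESeq2 put 4 genes past that adjusted p, and edgeR without the filter 79. The next by this ranking, outside the threshold, were ALB (serum albumin) with an interaction of 0.67 ± 0.14, where a fall with R1881 was smaller, and PDE3A, a cyclic nucleotide phosphodiesterase, with −0.63 ± 0.14. The estimate for AKAP12 was −0.72 ± 0.12. The members were not the genes with the largest estimates. Of the 749 genes called higher with R1881 and siSCR in 22Rv1, 520 had an interaction below 0, with a median of −0.11, and 71, 66 and 76 of them had a lower estimate than AGR2, IGFBP3 and AKAP12. A gene called higher with siSCR was selected on values that also enter its interaction. FKBP5 had an interaction of −0.12 ± 0.09, and its rise in CPM with siMETTL3 was 95.3% of that with siSCR.

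**Figure D2:**
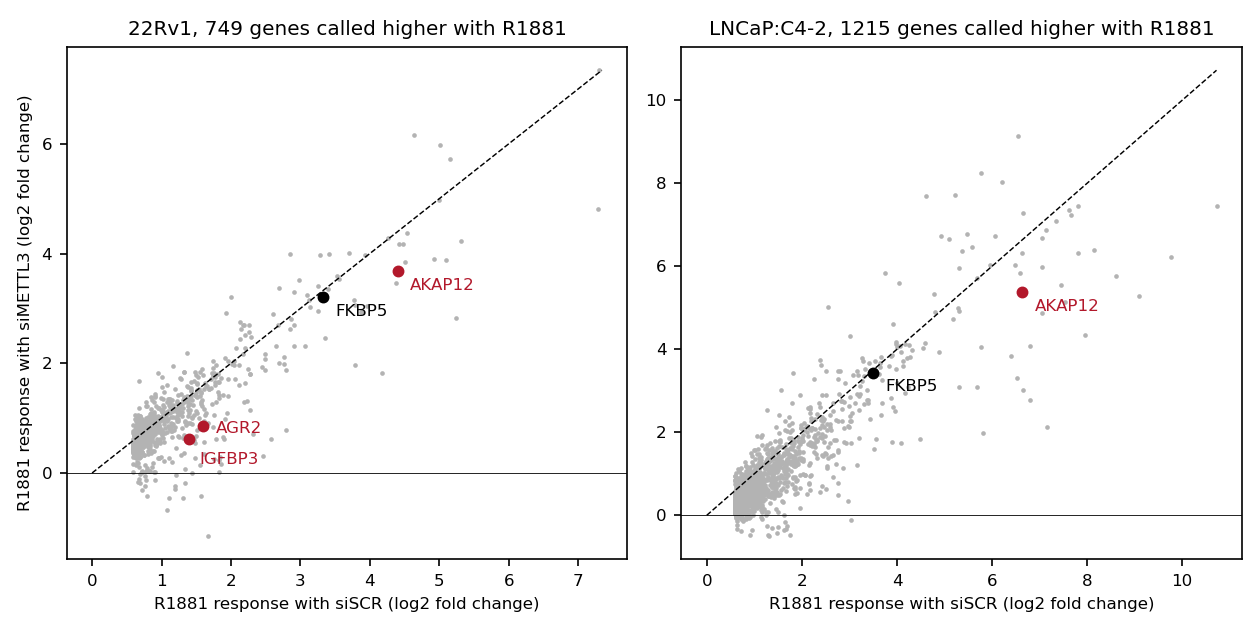
R1881 response (log2 fold change) with siSCR on the x axis and with siMETTL3 on the y axis, for genes called higher with R1881 and siSCR in 22Rv1 (749 genes) and LNCaP:C4-2 (1215 genes). The dashed line marks equal responses. The members in red lie below it, which in 22Rv1 follows from their choice. In LNCaP:C4-2 AKAP12 is the only member called higher and shown. FKBP5 in black lies close to the line, and other genes lie further below it than the members.

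In LNCaP:C4-2 the members behaved differently from each other. AKAP12 rose with R1881, IGFBP3 fell, and AGR2 was barely detected. Of the 16435 genes tested in this line, 15.1% were called for R1881 with siSCR (7.39% higher, 7.72% lower) and 10.6% with siMETTL3. Separation of all R1881 from all vehicle libraries was seen in 41.4% of genes with siSCR and 33.5% with siMETTL3. Among the LNCaP:C4-2 libraries, 2 stood furthest apart from those of their own condition. They were siSCR R1881 replicate 1 (chi-square per degree of freedom of 30.5 and 30.8 against the other libraries, which differed from each other by 3.05; mitochondrial share 7.08% against 9.69% and 9.73%) and siMETTL3 vehicle replicate 1 (38.5 and 41.7 against 4.11; 9.60% against 6.89% and 7.03%). Without the former, AKAP12 rose by 6.58 and IGFBP3 fell by 2.71 on the log2 scale with siSCR, their interactions were −1.22 and 0.81, and 1497 genes in place of 115 were called between the siRNA pools with R1881. Without the latter, the responses with siMETTL3 were 5.43 and −2.03 and the interactions −1.21 and 0.78.

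AKAP12 in LNCaP:C4-2 read 1.16, 1.99 and 0.983 CPM in the siSCR vehicle libraries (17 to 37 counts) and 152.8, 124.8 and 140.2 CPM with R1881. With siMETTL3 it read 2.68, 2.57 and 2.07 CPM in vehicle (37 to 46 counts) and 100.1, 105.8 and 93.7 CPM with R1881. As in 22Rv1, all siMETTL3 vehicle libraries were above the siSCR ones, by a narrow margin, and all siMETTL3 R1881 libraries were below. The rise was 99.5-fold with siSCR (log2 6.64 ± 0.18, edgeR adjusted p = 1.342e-12), the 24th largest in this line, and 41.3-fold with siMETTL3 (log2 5.37 ± 0.17, edgeR adjusted p = 7.346e-12). The interaction was −1.27 ± 0.26 (95% interval −1.82 to −0.71), which did not pass after adjustment over all genes (edgeR adjusted p = 0.1986; 16th of all genes by p). DESeq2 gave −1.28 with an adjusted p of 0.003151, and leaving out single libraries in edgeR gave −1.63 to −1.08 with adjusted p from 0.06861 to 0.7025. The edgeR test called 0% of genes here (0 of 16435, with 2037 at an unadjusted p under 0.05), and DESeq2 called 60.

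The parts of that interaction did not pass in edgeR on their own either. The siMETTL3 difference of AKAP12 in LNCaP:C4-2 was 0.79 ± 0.23 in vehicle (edgeR adjusted p = 0.0970; 1.2% of genes called, 22% with libraries that do not overlap) and −0.47 ± 0.13 with R1881 (edgeR adjusted p = 0.06613; 0.7% called, 33.4% with libraries that do not overlap). DESeq2 gave 0.79 with an adjusted p of 0.03071 in vehicle, past its threshold, and −0.49 with an adjusted p of 0.004001 with R1881, under the fold threshold. The vehicle difference rested on 17 to 46 counts a library. It was 1.16 in edgeR (adjusted p = 0.02591) without siSCR replicate 2, the highest of the siSCR libraries, and 0.68 and 0.61 without siSCR replicates 1 and 3. In CPM, the rise with siMETTL3 was 70.6% of that with siSCR, beside 72.7% in 22Rv1. On this measure FKBP5 stood at 79.7% and KLK3 at 95.5% in LNCaP:C4-2. Among the 1215 genes called higher with siSCR in LNCaP:C4-2, the median interaction was −0.35, 989 were below 0 and 67 were lower than AKAP12.

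IGFBP3 in LNCaP:C4-2 read 49.2, 42.2 and 53.3 CPM in the siSCR vehicle libraries and 5.92, 5.23 and 9.28 CPM with R1881. With siMETTL3 it read 36.4, 48.04 and 51.01 CPM in vehicle and 10.2, 9.36 and 16.6 CPM with R1881. Every R1881 library was below every vehicle library with either pool, opposite to 22Rv1. IGFBP3 fell by 2.82 ± 0.24 on the log2 scale with siSCR (edgeR adjusted p = 3.344e-07) and by 1.89 ± 0.22 with siMETTL3 (edgeR adjusted p = 1.884e-05). The interaction was 0.93 ± 0.32 (95% interval 0.25 to 1.61, edgeR adjusted p = 0.3376), so the estimate was of a smaller fall under siMETTL3. The siMETTL3 libraries with R1881 were all higher than the siSCR ones, narrowly, by 0.82 ± 0.24 (edgeR adjusted p = 0.07439; DESeq2 adjusted p = 0.01618), a separation seen in 33.4% of genes. Leaving out single libraries gave 0.51 to 1.11 for this difference and 0.62 to 1.22 for the interaction, with both lowest values without siMETTL3 R1881 replicate 3. The vehicle libraries overlapped (−0.11 ± 0.21, edgeR adjusted p = 0.8424). The fall in CPM with siMETTL3 was 80.0% of that with siSCR.

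AGR2 held 1 to 12 counts in each LNCaP:C4-2 library. Condition means were 0.225 and 0.272 CPM with siSCR (vehicle, R1881) and 0.375 and 0.405 CPM with siMETTL3, and the libraries of all 4 conditions overlapped. The gene did not pass the filter on low counts, so no fold change is given and a response to R1881 or to siMETTL3 was not detectable at this depth.

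**Figure D3:**
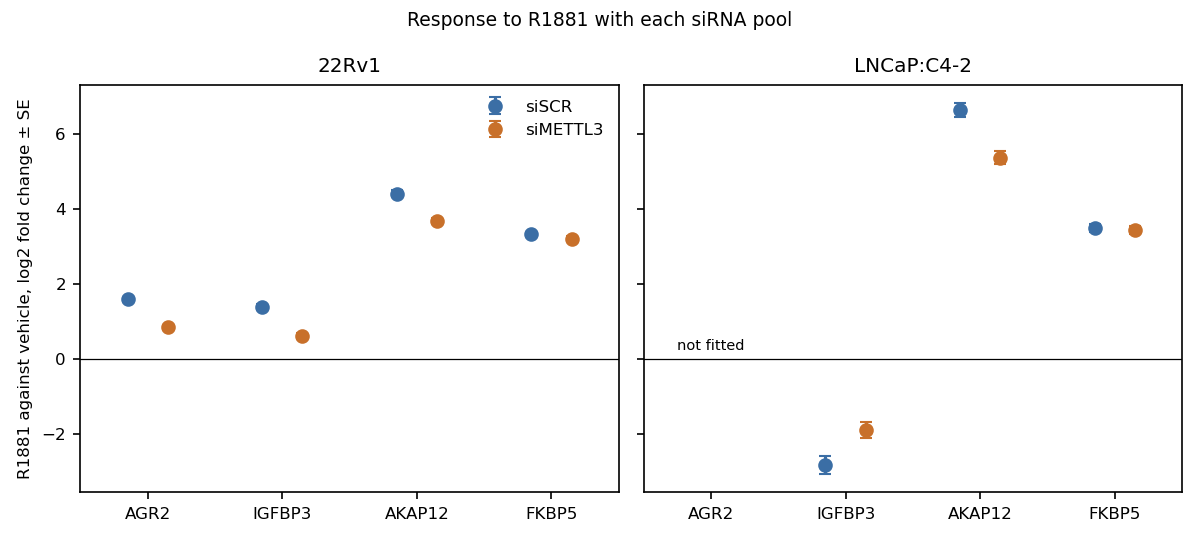
Log2 fold change of R1881 against vehicle (points, with SE as bars) for the 3 members and FKBP5 with siSCR (blue) and siMETTL3 (orange) in each cell line, 3 libraries a condition. The siMETTL3 response lay closer to 0 for each member that could be fitted, and FKBP5 hardly differed between the pools. In the line used to choose the members, their smaller response follows from the choice. In LNCaP:C4-2 the interactions of IGFBP3 and AKAP12 did not pass (edgeR adjusted p = 0.3376 and 0.1986), and AGR2 was not fitted.

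Ordered by level, AGR2 in 22Rv1 ran from siSCR with R1881 (209.8 ± 2.72 CPM, SD, n = 3) through siMETTL3 with R1881 and siMETTL3 in vehicle to siSCR in vehicle (69.1 ± 5.13 CPM), each apart from the next, and all LNCaP:C4-2 conditions overlapped near the floor. IGFBP3 was above its highest LNCaP:C4-2 library, 53.3 CPM, in every 22Rv1 library. Its order ran from 305 ± 19.8 CPM (22Rv1, siSCR, R1881) to 6.81 ± 2.17 CPM (LNCaP:C4-2, siSCR, R1881), and the neighbours that overlapped were the vehicle conditions of each line. AKAP12 ran from 461 ± 27.7 CPM (22Rv1, siSCR, R1881) to 1.38 ± 0.535 CPM (LNCaP:C4-2, siSCR, vehicle) with no overlap between neighbours, and its 4 R1881 conditions all stood above its 4 vehicle conditions whatever the line. Divided by exonic length, the members were close to each other in 22Rv1 with siSCR and R1881, at 73.7 ± 0.949 CPM per kb for AGR2, 66.7 ± 4.33 for IGFBP3 and 52.7 ± 3.16 for AKAP12. In vehicle AKAP12, at 2.48 ± 0.160 CPM per kb, was well below AGR2 (24.3 ± 1.80) and IGFBP3 (25.3 ± 0.780).

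The disulphide isomerases related to AGR2 are folding enzymes of the endoplasmic reticulum. Of 22 listed, 17 were tested in LNCaP:C4-2, where R1881 with siSCR raised 3 and lowered none, that is 17.6% called beside 15.1% of all genes, with a median log2 difference of 0.18 against −0.03 over all genes. In 22Rv1, 18 were tested, of which 2 rose and 2 fell (22.2% beside 13.8% of all genes, median 0.14 against 0.00). PDIA5 rose in both lines, by 1.20 in LNCaP:C4-2 and 0.87 in 22Rv1 on the log2 scale. PDIA2, a pancreatic isomerase, rose by 1.34 in LNCaP:C4-2 and fell by 0.94 in 22Rv1. ERP44, which retains proteins in the early secretory pathway, rose in LNCaP:C4-2 (0.61), while DNAJC10, a reductase, rose (0.66) and ERP27 fell (−3.97, from 0.663 to 0.0359 CPM) in 22Rv1. AGR3, the nearest relative of AGR2, held no counts in LNCaP:C4-2 and averaged at most 0.366 CPM in 22Rv1. With siMETTL3, R1881 raised 1 of these genes in each line, and it lowered 2 in 22Rv1. The share called was 5.9% in LNCaP:C4-2 beside 10.6% of all genes, and 16.7% in 22Rv1 beside 13.5%.

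Of 11 mucins, which include substrates of AGR2, 7 were tested in LNCaP:C4-2 and 5 in 22Rv1. In 22Rv1, where AGR2 rose, 3 of 5 fell with R1881 and siSCR and none rose (9.64% of all genes fell and 4.19% rose, median −1.08). MUC13, a membrane mucin of the gut, fell from 237 to 71.2 CPM (log2 −1.74). MUC4 fell by 1.08 from 4.07 to 1.93 CPM, and MUC1 by 1.92 from 1.72 to 0.457 CPM. In LNCaP:C4-2, MUC1 rose by 1.34 and MUC20 by 1.20, and MUC13 fell by 3.47 from a mean of 1.15 CPM (3 of 7 mucins called beside 15.1% of all genes, median 0.08).

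Around IGFBP3, 24 genes of the IGF axis were listed and 19 were tested in LNCaP:C4-2. With siSCR, R1881 raised 3 of them and lowered 3 (31.6% called beside 15.1% of all genes, median 0.04). IGF1R, the IGF receptor, rose from 9.23 to 98.0 CPM (log2 3.40), and the receptor substrates IRS1 and IRS2 rose by 2.01 and 1.91. The binding protein IGFBP5 fell by 1.44, IGFBPL1 by 2.48 (from 0.460 to 0.0746 CPM, under the 3-count floor) and the adaptor GRB10 by 1.21. The binding proteins called in this line, IGFBP3 included, were thus all lower, though IGFBPL1 was barely detected. In 22Rv1 1 of 15 rose and 4 fell (33.3% beside 13.8% of all genes, median −0.30). IGFBP1 rose from 0.941 to 7.17 CPM (log2 2.91 ± 0.23, edgeR adjusted p = 2.195e-09), whereas the binding proteins IGFBP2 and IGFBP6 fell by 1.49 and 1.27, the endocytic receptor LRP1 by 1.18 and IRS1 by 0.89. IGF1R was at 6.14 and 4.49 CPM in 22Rv1 and was not called.

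siMETTL3 moved other binding proteins. In 22Rv1 with R1881, IGFBP2 was higher by 0.83 (edgeR adjusted p = 0.003554) and IGFBP6 by 1.17 (edgeR adjusted p = 0.02347), opposite in direction to IGFBP3 (−0.61). IGFBP6 was low, at 0.597 CPM with siSCR and 1.37 CPM with siMETTL3. IGFBP1 differed in the direction of IGFBP3 and was not called (−0.25, edgeR adjusted p = 0.3567). These 2 calls among 15 genes of the axis made 13.3%, beside 3.29% of all genes. In LNCaP:C4-2 vehicle cells, 5 of 19 genes of the axis were higher with siMETTL3 and none lower, namely IGF2 (1.03), IGFBP5 (1.00), LRP1 (0.78), STC1 (0.82) and STC2 (0.88), beside 1.2% of genes called. The calls of this comparison were unstable. Leaving out siSCR vehicle replicate 3 turned 197 genes called by edgeR into 0 (1858 at an unadjusted p under 0.05), and leaving out siMETTL3 vehicle replicate 1 gave 339. STC1, a stanniocalcin that restrains release of IGF from its binding proteins, had the smallest interaction p in LNCaP:C4-2 (−1.33 ± 0.19, edgeR adjusted p = 0.06735). No gene of the 4 related lists passed the edgeR interaction test in either line, and the lists were not counted under DESeq2.

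Of 26 genes listed for anchoring proteins and protein kinase A, 23 were tested in each line. In 22Rv1 none rose with R1881 and siSCR and 5 fell (21.7% called beside 13.8% of all genes, 4.19% higher and 9.64% lower, median −0.04). Those that fell were AKAP5 (−0.74), AKAP9 (−0.73), the regulatory subunits PRKAR1B (−1.23) and PRKAR2B (−1.12), and PDE4D (−1.38), which degrades cyclic AMP. In LNCaP:C4-2, 4 rose and 4 fell (34.8% beside 15.1% of all genes, median 0.12). The anchoring proteins AKAP1 (0.64), AKAP5 (0.72), AKAP6 (0.61) and AKAP10 (0.74) rose. PRKAR1B (−1.02), PRKAR2B (−0.79), PDE4D (−1.56) and PKIA (−2.02), an inhibitor of the kinase, fell. Thus PRKAR1B, PRKAR2B and PDE4D were lower with R1881 in both lines, and AKAP5 differed in direction. The counts with siMETTL3 were 2 higher and 4 lower in LNCaP:C4-2 (26.1% called beside 10.6% of all genes). They were 0 and 4 in 22Rv1 (17.4% beside 13.5%).

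**Figure D4:**
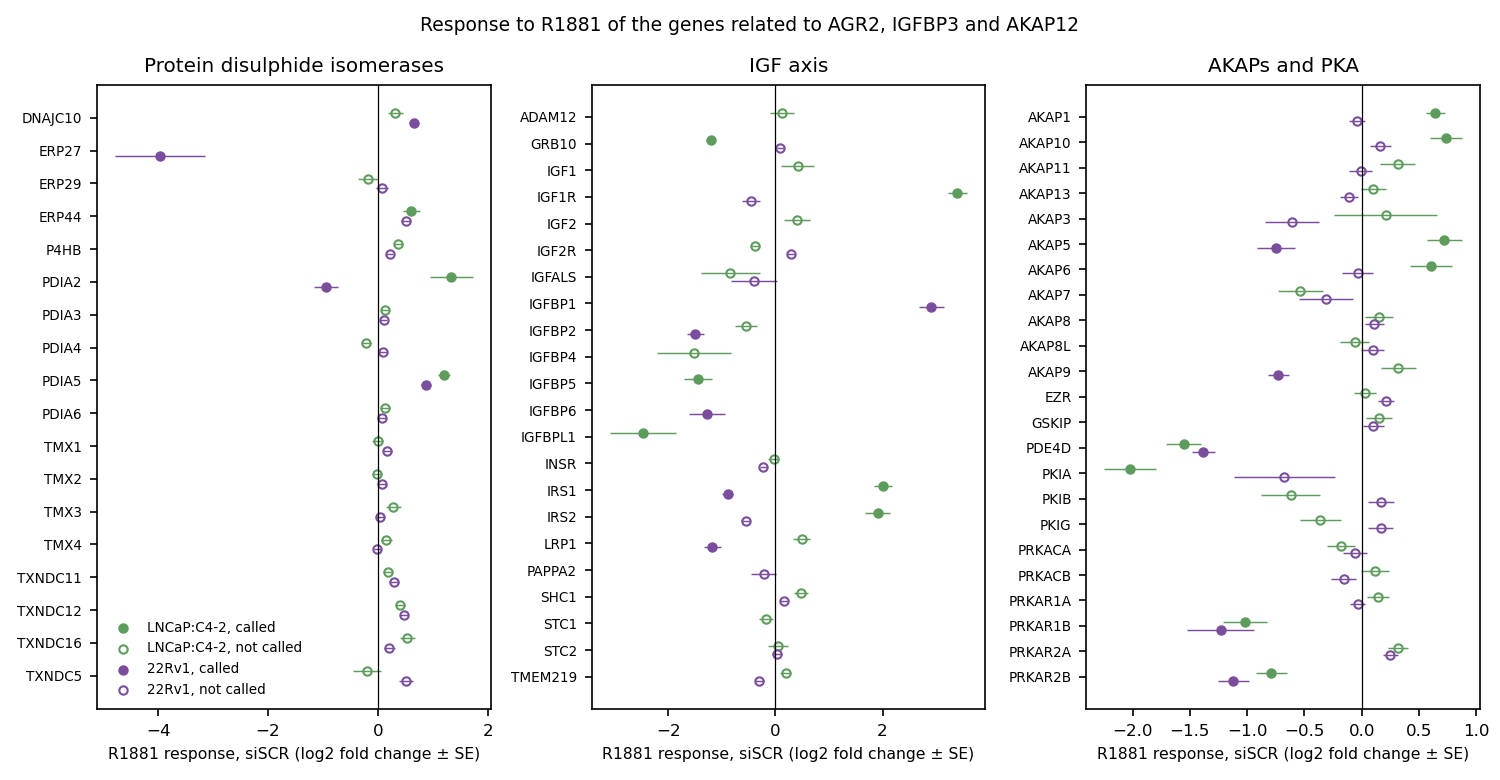
Log2 fold change of R1881 against vehicle with siSCR (SE as bars, 3 libraries a condition) for tested genes of the disulphide isomerase, IGF and anchoring protein lists in LNCaP:C4-2 (green) and 22Rv1 (purple). Filled points passed the test and the 1.5-fold threshold; IGF1R, IRS1 and IRS2 lie to the right in LNCaP:C4-2 and to the left in 22Rv1, and PDE4D lies to the left in both.

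Known androgen-induced genes gave the setting. All 17 listed rose in LNCaP:C4-2 with either pool (median log2 3.02 with siSCR and 2.40 with siMETTL3). In that line 15.1% of all genes were called with siSCR and 10.6% with siMETTL3. In 22Rv1 6 rose and 1 fell with either pool (median 0.45 and 0.26). That was 41.2% called, beside 13.8% and 13.5% of all genes. KLK3, which encodes prostate-specific antigen, read 6.61 ± 0.315 CPM in 22Rv1 with siSCR in vehicle and 6.56 ± 0.712 CPM with R1881. AKAP12 thus belonged to the genes raised in both lines, like SLC45A3 (log2 5.29 and 1.57 in LNCaP:C4-2 and 22Rv1) and PMEPA1 (3.23 and 1.51).

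The chromosomal neighbours of the members differed in their responses. IGFBP1 lies 18.6 kb from IGFBP3 and rose with it in 22Rv1. Its response with siMETTL3 was 2.32 ± 0.22, and its interaction of −0.59 ± 0.35 did not pass (edgeR adjusted p = 0.8299). In LNCaP:C4-2 IGFBP1 held at most 0.0394 CPM as a condition mean. TSPAN13, 7.3 kb from AGR2, rose by 0.67 ± 0.11 in LNCaP:C4-2 with siSCR (edgeR adjusted p = 0.0003853), where AGR2 was near the floor, and differed by 0.46 ± 0.08 in 22Rv1, under the fold threshold. With siMETTL3 its responses were 0.39 ± 0.11 and 0.13 ± 0.08. Its interactions of −0.28 ± 0.16 in LNCaP:C4-2 and −0.33 ± 0.11 in 22Rv1 did not pass (edgeR adjusted p = 0.4546 and 0.8023). Further off, AHR lies on the other side of AGR2, TNS3 of IGFBP3 and MTHFD1L of AKAP12. AHR differed by −0.08 ± 0.30 in LNCaP:C4-2 and 0.51 ± 0.10 in 22Rv1. TNS3 rose by 1.02 ± 0.25 in LNCaP:C4-2 (edgeR adjusted p = 0.008046), where IGFBP3 fell, and differed by 0.41 ± 0.08 in 22Rv1, under the fold threshold. MTHFD1L differed by 0.29 ± 0.10 and 0.10 ± 0.08. ZBTB2, 5.6 kb from AKAP12, differed by 0.16 ± 0.11 in LNCaP:C4-2 and 0.08 ± 0.10 in 22Rv1. The 22Rv1 interactions of AHR, TNS3, MTHFD1L and ZBTB2 were −0.08, 0.07, 0.02 and −0.04. No gene kept by the filter overlapped a member.

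The genes whose pattern over the 8 condition means was most like each member were found by the root mean square difference of log2 CPM, each gene centred on its own mean, among 15199 genes. For AGR2 they were MT1G (0.34), CNN3-DT (0.39) and MAGEA4 (0.45), all below 1 CPM in every LNCaP:C4-2 condition, so that the difference between lines set the match. MAGEA4 read 187.5 and 203.9 CPM in 22Rv1 without and with R1881 and was not called. For IGFBP3 they were CDH12, a cadherin (0.37), RELN (0.53) and HTRA1 (0.53). CDH12 repeated the opposite responses, with a fall of 2.75 in LNCaP:C4-2 and a rise of 1.51 in 22Rv1, whereas RELN and HTRA1 fell in LNCaP:C4-2 and were not called in 22Rv1. For AKAP12 they were SLC26A3, an intestinal anion exchanger (0.49), STEAP4, a metalloreductase (0.56), and CARTPT (0.94). SLC26A3 read 0 CPM in LNCaP:C4-2 vehicle cells with siSCR, 6.20 with R1881 and 1.98 with R1881 and siMETTL3, and 0.409, 6.46 and 5.06 CPM in 22Rv1.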

How the data were processed

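Per the methods and file headers, the authors used Trim Galore, then STAR on GRCh38, then featureCounts 1.5.0-p1 with the Ensembl release 83 genes. What they deposited are unnormalized fragment counts for 60675 genes, and 56558 of these could be named through the reference annotation. The counting was not set to use strand, and its defaults leave out fragments on several places or genes. Library totals ran from 15716224 to 21306019, and floors and errors cover these libraries only.

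The members and gene lists were chosen with earlier results of these data known. The 12 libraries of a line were fitted together in edgeR 4.0.16 (R 4.3.3) with a mean per condition, TMM scaling, filterByExpr, glmQLFit and glmQLFTest, two-sided with Benjamini-Hochberg adjustment over all genes tested. Genes were called at an adjusted p under 0.05 and at least 1.5-fold, and interactions at the adjusted p alone. The SE is the absolute log2 difference over the square root of F. On simulated data with 200 genes changed by 1 log2 unit, the R1881 test recovered 89% in LNCaP:C4-2 and 88.5% in 22Rv1, and the interaction test 69% and 79.5%. Of the calls, 2.73% and 2.75% were false for R1881, and 3.5% and 5.92% for the interaction. The simulated counts were independent and held no library that stood apart, so recovery in the real libraries may be lower.

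Genes named were the members, METTL3, KLK3, FKBP5, up to 4 called genes of each list with the largest R1881 response per line, the nearest kept gene on either side and the 3 most alike genes. ALB, PDE3A, AGR3, IGF2, IGFBP5, STC1, STC2, GRB10, AKAP1, AKAP6, AKAP9 and AKAP10 were named after their values were seen. AKAP2, among the 26 genes listed with the anchoring proteins, matched no identifier and has no value, and 1 other gene is not reported here. Same-numbered libraries did not deviate together (mean correlation over 18 pairs −0.0172 for LNCaP:C4-2, and −0.0107 over as many for 22Rv1), so the fits are unpaired. No replicate pair was identical (chi-square per degree of freedom 2.21 to 41.7). Alternatives were DESeq2 1.42.0, other scalings and filters, the replicate number as a block and leaving out each library.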

Additional observations from a re-analysis of the deposited data

Results flagged for a closer look

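IGFBP3 moved in opposite directions with R1881 in the lines in every library. Its log2 response in 22Rv1 exceeded that in LNCaP:C4-2 by 4.21 with siSCR (1.39 against −2.82) and by 2.51 with siMETTL3 (0.62 against −1.89). The difference between lines was not tested, because the 22Rv1 libraries were used to choose the gene. CDH12 was picked as the gene most like it, which fixes its pattern, and its difference was 4.26.

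Of the 46 genes taken by the naming rule, 10 moved in opposite directions in every library with siSCR, and none of these differences was tested. The genes were taken for large responses or likeness to a member. Of the 46, AGR2, ERP27, IGFBP1, IGFBP6, IGFBPL1, MT1G and CNN3-DT were tested in only 1 line and could not be counted as opposite. Of 14985 genes tested in both lines, 5.9% moved in opposite directions in this way, and of the 3265 called in at least 1 line, 11%. The others were higher with R1881 in LNCaP:C4-2 and lower in 22Rv1. In the IGF axis the 22Rv1 response minus the LNCaP:C4-2 response was −3.85 for IGF1R, −2.90 for IRS1, −2.47 for IRS2 and −1.67 for LRP1. It was −3.26 for MUC1, which averaged only 1.72 CPM in vehicle and 0.457 CPM with R1881 in 22Rv1. The same difference was −2.28 for PDIA2, −1.47 for AKAP5 and −4.67 for TMPRSS2, an androgen-induced protease gene. Several of these were not called in 1 of the lines, TMPRSS2, IGF1R and IRS2 in 22Rv1 and LRP1 in LNCaP:C4-2.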

How the results depend on the processing

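All 198 refits of the members in 22Rv1 kept their direction and moved by less than the pooled SD of single libraries. Leaving out a single library can seldom move a mean that far, so this bound is not a test. The members were also chosen on these values. The R1881 calls of IGFBP3 and AKAP12 in LNCaP:C4-2 held in every alternative run. Without a filter on low counts, edgeR called the LNCaP:C4-2 interactions of IGFBP3 (0.92, adjusted p = 0.003949) and AKAP12 (−1.28, adjusted p = 0.0003675), the siMETTL3 difference of AKAP12 in vehicle (0.80) and that of IGFBP3 with R1881 (0.82), and AGR2 had no call. In LNCaP:C4-2 the unfiltered edgeR test gave far lower p-values, for IGFBP3 with R1881 and siSCR 3.492e-73 against 3.99e-09 with the filter. Its calls there are therefore not on the same footing as the main ones. DESeq2 called the AKAP12 interaction (−1.28), its vehicle difference (0.79) and the IGFBP3 difference with R1881 (0.81), not the IGFBP3 interaction. In LNCaP:C4-2, genes called for the interaction, siMETTL3 in vehicle and siMETTL3 with R1881 numbered 0, 197 and 115, against 351, 464 and 776 without the filter and 60, 380 and 521 with DESeq2. In 22Rv1 the interaction called 3 genes, 4 with DESeq2 and 79 without the filter, and siMETTL3 in vehicle 36, 87 without the filter. The cause was not tested. With the replicate number as a block, siMETTL3 with R1881 called 39 genes in LNCaP:C4-2, and no call of IGFBP3 or AKAP12 changed in that line. No library pairing is given by the labels.

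Leaving out single libraries turned the IGFBP3 difference in LNCaP:C4-2 vehicle once (−0.2057 to 0.0236) and gave 0.61 to 1.16 for AKAP12 there. Counts of genes called ran from 0 to 8 for the LNCaP:C4-2 interaction, 0 to 339 and 1 to 1497 for siMETTL3 in vehicle and with R1881, and for the same comparisons in 22Rv1 2 to 30, 15 to 228 and 309 to 538. The 1497 came without siSCR R1881 replicate 1, the 30 without siSCR vehicle replicate 3, and the 8 without siMETTL3 vehicle replicate 3. Of the 3 most alike genes, 0 to 2 stayed with a prior count of 2 or at least 5 CPM.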
